A study of Mus musculus with 25 samples.

Results

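Mammary carcinomas without spindle-cell pathology were compared between mice with a Met transgene and mice with a conditional Trp53 deletion. The comparison used 12 of the 25 arrays of the series: 6 Met carcinomas (genotype MMTV-Met, any pathology but Spindloid) and 6 Trp53-deleted carcinomas with pathology Adenocarcinoma or Poorly Differentiated Adenocarcinoma. Of the Trp53-deleted carcinomas, 3 also carried the Met transgene (genotype MMTV-Met;Trp53fl/+, called MetTrp53 here) and 3 did not (genotype Trp53fl/+, called Trp53 here). The rule for the members uses the genotype and pathology labels and no measured value.

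All mice were female FVB, and each array held microRNA from 1 snap-frozen tumour on a one-colour Agilent mouse miRNA array. Age was not given in the sources used here. MMTV-Met is a Met transgene under the mouse mammary tumour virus promoter, which is active in mammary epithelium. The Trp53 mice carry 1 floxed Trp53 allele, and the design text adds a Cre recombinase without naming what drives it. The Met carcinomas were 3 of pathology Solid Nodular Carcinoma (tumours 1, 2 and 5), 1 Adenosquamous (tumour 3), 1 Scirrhous Adenocarcinoma (tumour 4) and 1 Adenocarcinoma (tumour 6). The Trp53-deleted carcinomas were 3 of pathology Adenocarcinoma (tumour 1, MetTrp53, and tumours 2 and 4, Trp53) and 3 Poorly Differentiated (tumour 3, Trp53, and tumours 5 and 6, MetTrp53). Tumour numbers are names only. Multiparous mice gave 5 Met carcinomas and 2 Trp53-deleted ones, nulliparous mice gave 2 Trp53-deleted ones, and parity was not stated for 1 Met carcinoma and 2 Trp53-deleted ones. Trp53-deleted tumours 2 and 3 share a number in their titles, so they may come from 1 mouse, and the p-values rest on the variation among these tumours alone.

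A microRNA (miRNA) is a short RNA that guides silencing proteins to messenger RNAs that pair with its seed, the bases near its 5′ end. Families that share a seed can repress the same messengers. The miR-200 family keeps ZEB1 and ZEB2 low and is a marker of epithelial cells, so it is often lost when carcinoma cells take on a mesenchymal state. Met is the receptor for hepatocyte growth factor, and p53, the product of Trp53, induces a set of miRNAs that includes miR-34a.

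The sequences of the miRNAs on which the comparison turns are given from RefSeq (GRCm38.p6), 5′ to 3′, with the seed (bases 2 to 8) in capitals. Of 30 miRNAs looked up, 26 had an entry. Those printed show which of them share a seed and which come from 1 locus. The first 8 had higher mean levels in the Met carcinomas.
miR-30a-5p: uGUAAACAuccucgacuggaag
miR-30c-5p: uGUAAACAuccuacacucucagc
miR-148a-3p: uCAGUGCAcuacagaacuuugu
miR-146b-5p: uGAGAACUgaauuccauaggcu
miR-200b-3p: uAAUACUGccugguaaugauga
miR-200c-3p: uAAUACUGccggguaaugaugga
miR-200a-3p: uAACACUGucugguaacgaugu
miR-141-3p: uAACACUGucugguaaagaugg
The next 11 had lower mean levels in the Met carcinomas.
miR-16-5p: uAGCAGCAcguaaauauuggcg
miR-15b-5p: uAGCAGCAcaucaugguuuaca
miR-23a-3p: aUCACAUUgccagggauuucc
miR-27a-3p: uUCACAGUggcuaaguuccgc
miR-99b-5p: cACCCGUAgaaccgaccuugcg
let-7e-5p: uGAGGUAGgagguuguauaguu
miR-125a-5p: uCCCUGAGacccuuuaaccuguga
miR-221-3p: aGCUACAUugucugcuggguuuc
miR-222-3p: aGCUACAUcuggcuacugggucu
miR-21-5p (miR-21a-5p in RefSeq): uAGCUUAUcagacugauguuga
miR-31-5p: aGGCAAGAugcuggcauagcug
The last one is the paralog of miR-27a-3p, which had a higher mean level in the Met carcinomas.
miR-27b-3p: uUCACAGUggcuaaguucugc

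Several of these miRNAs come from 1 locus. miR-30a-5p (chr1:23272274-23272295, plus strand) and 1 of the 2 copies of miR-30c-5p (chr1:23291714-23291736, plus strand) start 19440 bases apart and share the seed GUAAACA. miR-23a-3p (chr8:84208563-84208583) and miR-27a-3p (chr8:84208727-84208747) start 164 bases apart on the plus strand and have different seeds. miR-99b-5p (chr17:17830194-17830215), let-7e-5p (chr17:17830366-17830387) and miR-125a-5p (chr17:17830817-17830840) lie within 623 bases of each other by their starts, also on the plus strand. miR-221-3p (chrX:19146307-19146329) and miR-222-3p (chrX:19146901-19146923), on the minus strand, share the seed GCUACAU. The miR-200 family has 2 seeds: miR-200b-3p, miR-200c-3p and miR-429-3p carry AAUACUG, and miR-200a-3p and miR-141-3p carry AACACUG, which is the change U4C counted from the 5′ end of miR-200b-3p. Its genes lie in 2 clusters, with miR-200b, miR-200a and miR-429 on chromosome 4 and miR-200c and miR-141 on chromosome 6.

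Levels are log2 of the scanner's processed intensity after each array was scaled to its 75th percentile, and 3.60 is the floor, the lowest level a miRNA can have. Scaled levels of different miRNAs are not compared, since probes differ in brightness. Of the 1122 mouse miRNAs on the array, 279 were detected on at least 6 of the 12 carcinoma arrays and were tested, and 180 were detected on all 12. The arrays detected 220 to 323 miRNAs in the Met carcinomas and 249 to 309 in the Trp53-deleted carcinomas. The scaling percentile was 279 to 738 intensity units in the Met carcinomas and 363 to 620 in the Trp53-deleted ones. Across the 279 miRNAs, which are not independent of each other, the median r between arrays was 0.887 within the Met carcinomas, 0.876 within the Trp53-deleted carcinomas and 0.882 between a Met and a Trp53-deleted carcinoma.

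The pathology labels were checked against 10 epithelial markers (the miR-200 family, miR-205, miR-203 and the miR-183 cluster), of which all are on the array and 4 were detected on all 12 carcinomas. Their mean level was 6.96 to 7.96 in the Met carcinomas. In the Trp53-deleted carcinomas it was 7.32, 8.35 and 7.52 in the 3 Poorly Differentiated tumours (3, 5 and 6), and 5.77, 5.70 and 3.66 in the 3 tumours labelled Adenocarcinoma (1, 2 and 4). Trp53-deleted spindloid tumours, of which there were 6, lay between 3.60 and 4.61. The marker mean therefore goes against the label Adenocarcinoma in Trp53-deleted tumour 4. In tumours 1 and 2 the mean is below every Met carcinoma, but only part of the list is. There miR-200c-3p, miR-141-3p, miR-200a-3p, miR-200b-3p and miR-203-3p lay below all Met carcinomas. miR-183-5p (6.15 and 6.62) and miR-182-5p (5.39 and 5.74) lay inside the Met range in tumours 1 and 2. The mean of the tumours called poorly differentiated lies inside the Met range in tumours 3 and 6 and above it in tumour 5. The results are therefore given for all 6 Trp53-deleted carcinomas and also for each pathology label.

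Markers of other cell types were looked at in the same way. The mean level of 4 mesenchymal miRNAs (miR-199a-3p, miR-199a-5p, miR-199b-5p and miR-214-3p), all detected on all 12 arrays, was 4.78 to 7.90 in the Met carcinomas and 6.23 to 8.34 in the Trp53-deleted carcinomas. The 6 leukocyte markers averaged 4.28 to 7.51 in the Met carcinomas and 5.01 to 6.07 in the Trp53-deleted ones. None of the 5 skeletal muscle markers was detected often enough to be tested, yet their mean reached 6.58 in Met tumour 3 and 6.97 and 7.59 in Trp53-deleted tumours 4 and 6, against 3.60 to 4.04 in the other 9 carcinomas. The part of these cells in the results below was not tested. In whole tumours, fewer cells of a type and less RNA per cell cannot be told apart.

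With 6 tumours in each group, no miRNA passed the test between the Met carcinomas and the Trp53-deleted carcinomas. None of the 279 (0 percent) had a Benjamini-Hochberg adjusted p under 0.05 in limma, and the smallest adjusted p was 0.214. At an unadjusted p under 0.05 there were 32 (11.5 percent), of which 11 (3.94 percent) had higher and 21 (7.53 percent) lower means in the Met carcinomas. That balance moved with the samples and the fit: there were 16 higher and 12 lower with slide as a block, 14 and 4 without the solid nodular carcinomas, and 0 and 19 in multiparous mice alone. The total was 19 without Trp53-deleted tumour 1, 20 without Trp53-deleted tumour 4 and 21 without Met tumour 1, and up to 42 without another carcinoma. The mean was above that of the Trp53-deleted carcinomas for 135 miRNAs (48.4 percent) and below it for 144 (51.6 percent), with a median difference of -0.01. The 2 groups of 6 did not overlap for 2 miRNAs (0.717 percent), miR-30a-5p and miR-16-5p. The plot of differences gives the 10 miRNAs with the smallest p in each direction, and none of them passed the threshold.

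**Figure D1:**
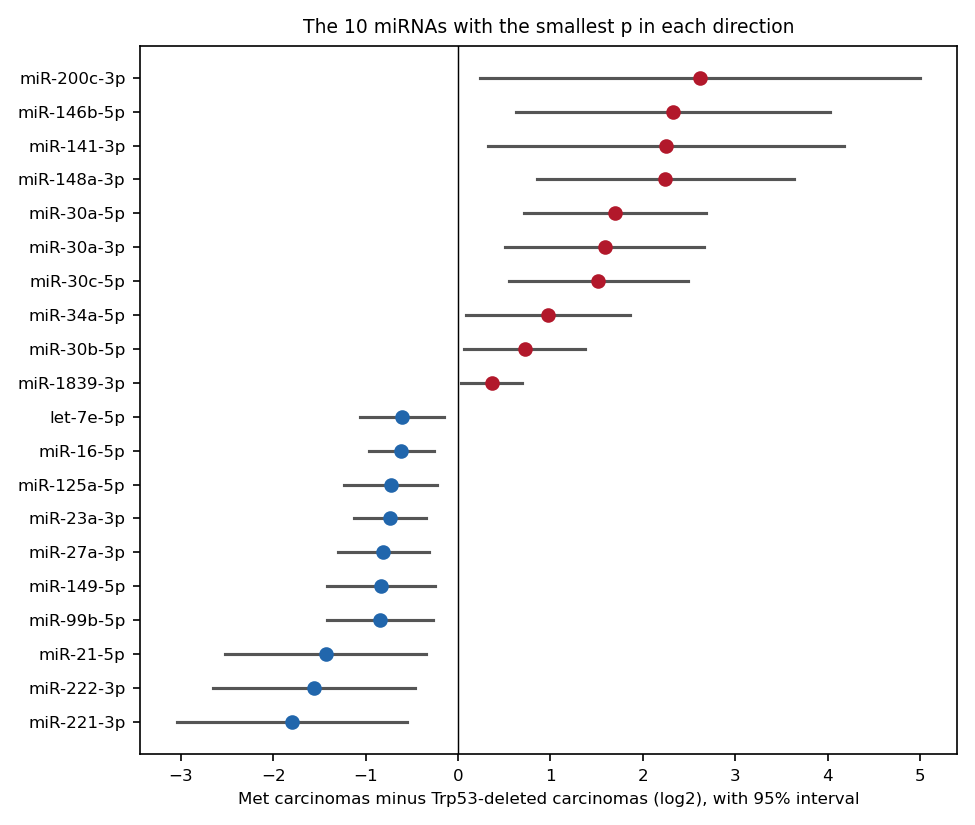
Difference in log2 level, Met carcinomas minus Trp53-deleted carcinomas, on the horizontal axis, for the 10 miRNAs with the smallest unadjusted p in each direction, with 95% confidence intervals from limma (n = 6 each). The values run from 2.62 for miR-200c-3p to -1.80 for miR-221-3p, the intervals are wide for the miR-200 members, and no adjusted p is below 0.214.

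The miR-30 family, whose members miR-30a-5p, miR-30c-5p and miR-30e-5p share the seed GUAAACA, had positive differences for 5 of 5 members, with a median of 0.73 against -0.01 over all miRNAs, and none passed the threshold. miR-30a-5p stood at 10.45, 10.03, 8.52, 8.47, 10.46 and 8.70 in Met tumours 1 to 6, against 7.21, 6.97, 8.43, 7.35, 8.13 and 8.36 in Trp53-deleted tumours 1 to 6. Every Met carcinoma was above every Trp53-deleted carcinoma, although the lowest Met value (8.47) and the highest Trp53-deleted value (8.43) nearly met. The means were 9.44 ± 0.97 and 7.74 ± 0.64 (SD, n = 6 each), a difference of 1.70 (SE 0.45, 95% interval 0.71 to 2.68, limma adjusted p = 0.214). The 3 solid nodular Met carcinomas held the top values, 10.03 to 10.46, and the other 3 Met carcinomas lay at 8.47 to 8.70.

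The other arm of the same hairpin, miR-30a-3p, had a mean of 6.07 ± 1.14 in the Met carcinomas and 4.48 ± 0.59 in the Trp53-deleted carcinomas (SD, n = 6 each). Its 6 Met values were 7.34, 6.64, 5.17, 4.93, 7.26 and 5.07, and its Trp53-deleted values 3.998, 3.95, 5.44, 4.10, 4.48 and 4.92. The groups overlapped, and again the solid nodular tumours were at the top. miR-30c-5p averaged 7.92 ± 0.92 in the Met carcinomas and 6.40 ± 0.68 in the Trp53-deleted carcinomas, a difference of 1.52 (SE 0.44, limma adjusted p = 0.214). Of the remaining members, miR-30b-5p differed by 0.72 (SE 0.30), miR-30e-5p by 0.73 (SE 0.34) and miR-30d-5p by 0.51 (SE 0.33). For miR-30d-5p the difference was -0.16 without the solid nodular carcinomas, so its sign rests on them. Without them miR-30a-5p differed by 0.82, miR-30c-5p by 0.75 and miR-30a-3p by 0.58. Outside the family, miR-1839-3p averaged 4.25 ± 0.31 in the Met carcinomas and 3.89 ± 0.14 in the Trp53-deleted carcinomas (SD, n = 6 each), a difference of 0.36 (SE 0.15) that did not pass.

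miR-148a-3p, a miRNA abundant in mammary epithelium and milk, showed 10.31, 9.56, 9.45, 9.46, 10.61 and 8.77 in Met tumours 1 to 6, against 7.34, 5.39, 8.09, 6.21, 9.72 and 7.92 in Trp53-deleted tumours 1 to 6. Apart from Trp53-deleted tumour 5, every Trp53-deleted carcinoma lay below all Met carcinomas. The difference was 2.24 (SE 0.64, limma adjusted p = 0.214), and without Trp53-deleted tumour 5 it was 2.70 with an adjusted p of 0.0379. That tumour left out, miR-125a-5p (-0.91) and let-7e-5p (-0.77) had the same adjusted p. miR-146b-5p, a miRNA that dampens NF-kappaB signalling, averaged 9.27 ± 1.06 in the Met carcinomas and 6.95 ± 1.73 in the Trp53-deleted carcinomas (SD, n = 6 each), a difference of 2.33 (SE 0.78, limma adjusted p = 0.247) that was 1.42 without the solid nodular carcinomas. Its relative miR-146a-5p had a difference of the opposite sign, -0.70 (SE 0.51).

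**Figure D2:**
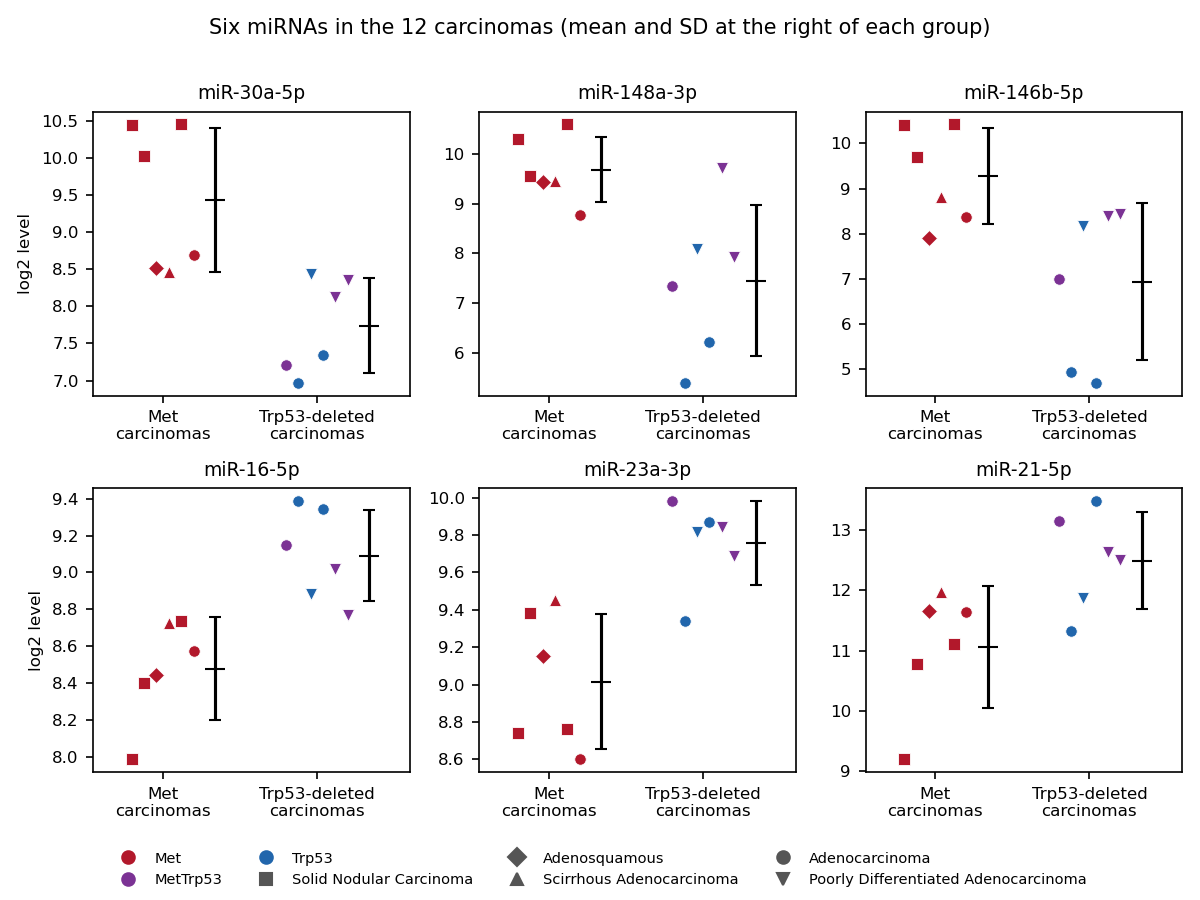
Level (log2, vertical axis) of 6 miRNAs in each of the 12 carcinomas, Met carcinomas left and Trp53-deleted carcinomas right, with colour for genotype, symbol for pathology and the mean with SD beside each group (n = 6 each). For miR-30a-5p and miR-16-5p the groups do not overlap, and the 3 Met squares (solid nodular) are the highest values of miR-30a-5p, at 10.03 to 10.46.

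The miR-200 family had positive differences for 5 of 5 members, with a median of 1.61, and none passed the threshold. miR-200c-3p stood at 11.11, 10.04, 9.37, 9.18, 11.05 and 9.50 in Met tumours 1 to 6, against 7.09, 4.59, 9.83, 3.77, 9.64 and 9.61 in Trp53-deleted tumours 1 to 6. The 3 Poorly Differentiated Trp53-deleted carcinomas fell within the Met range, and the 3 labelled Adenocarcinoma lay below it. The mean difference of 2.62 (SE 1.09, limma adjusted p = 0.370) thus averages 3 tumours within the Met range and 3 below it. miR-141-3p, its neighbour on chromosome 6, was 7.11 to 8.86 in the Met carcinomas, and 4.70, 3.60, 7.41, 3.60, 8.61 and 7.54 in Trp53-deleted tumours 1 to 6, which is the floor in tumours 2 and 4.

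In Trp53-deleted tumour 2, which is 1 array, the members of the family stood at unlike distances from the Met carcinomas. miR-200b-3p and miR-429-3p, from chromosome 4, were 8.50 and 8.47 there, against 8.67 to 10.10 and 8.25 to 9.57 in the Met carcinomas, while miR-200c-3p and miR-141-3p, from chromosome 6, were 4.59 and 3.60. miR-200a-3p, also from chromosome 4, was 5.86 in that tumour and 6.97 to 8.86 in the Met carcinomas. Trp53-deleted tumour 4 had 4.03 for miR-200b-3p and 3.60 for miR-200a-3p and miR-429-3p, so there both clusters were near the floor. For comparison, miR-200c-3p averaged 4.01 ± 0.65 in the 6 Trp53-deleted spindloid tumours. It was 7.40 and 7.13 in the 2 pools of normal mammary gland, both wild-type, the first multiparous and the second nulliparous.

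**Figure D3:**
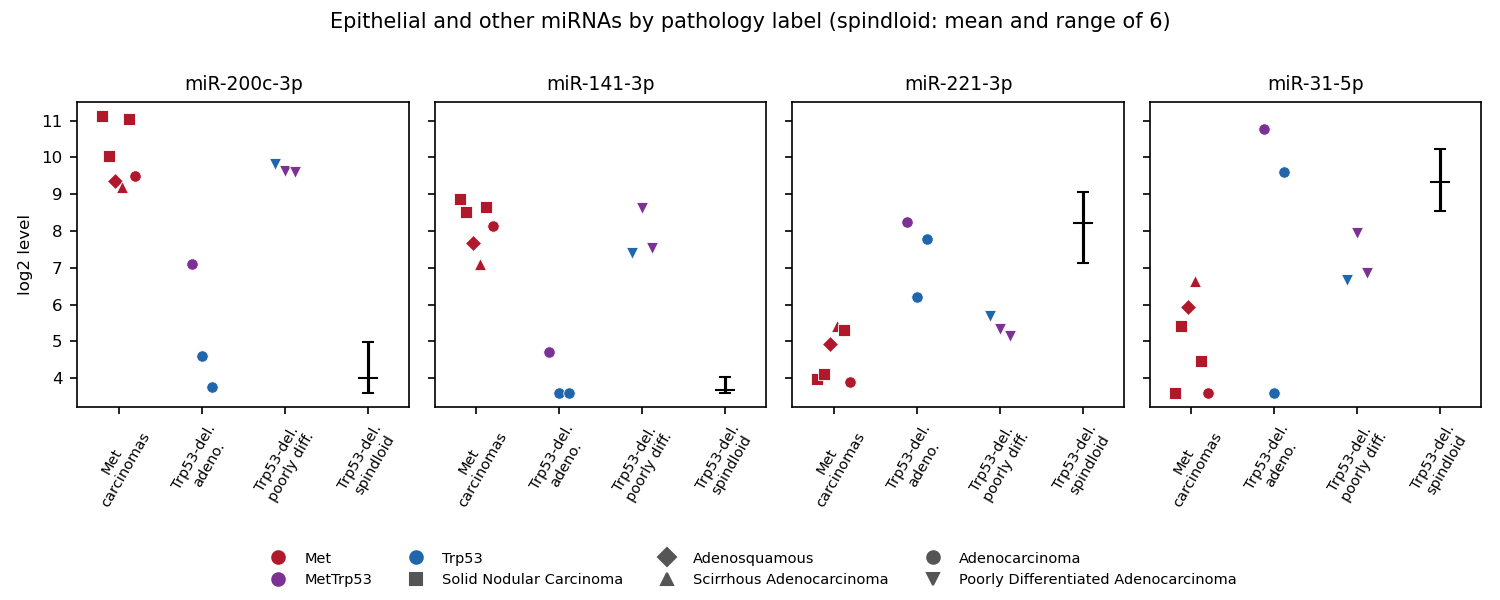
Level (log2, vertical axis) of 4 miRNAs by pathology label: the 6 Met carcinomas, the 3 Trp53-deleted carcinomas labelled Adenocarcinoma, the 3 labelled Poorly Differentiated, and the mean with the range of 6 Trp53-deleted spindloid tumours. Points are tumours, with colour for genotype and symbol for pathology. miR-200c-3p is 9.61 to 9.83 in the Poorly Differentiated tumours and 3.77 to 7.09 in those labelled Adenocarcinoma.

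Because the mean of the epithelial markers divided the Trp53-deleted carcinomas along their pathology labels, the Met carcinomas were also set against each label. This was done in 1 fit with 3 groups, a split chosen after the miR-200 values were seen. The miR-200 differences below therefore restate what chose it and are given as descriptions. Other miRNAs can follow the same division. For miR-146b-5p the values were 7.00, 4.93 and 4.71 in those labelled Adenocarcinoma, against 8.18, 8.40 and 8.45 in the Poorly Differentiated ones. The counts and leave-one-out ranges below are therefore not independent of the choice of split. Both contrasts share the 6 Met carcinomas. Against the 3 labelled Adenocarcinoma, 11 of 279 miRNAs (3.94 percent) passed an adjusted p of 0.05, 7 higher and 4 lower in the Met carcinomas. Against the 3 Poorly Differentiated tumours none passed (0 percent), 7 had an unadjusted p under 0.05 and the smallest adjusted p was 0.637. The median size of the difference over all miRNAs was 0.37 against those labelled Adenocarcinoma and 0.17 against the Poorly Differentiated ones.

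The miRNAs higher in the Met carcinomas than in those labelled Adenocarcinoma were miR-200c-3p (4.89), miR-141-3p (4.19), miR-200a-3p (3.104), miR-146b-5p (3.73, SE 0.65, limma adjusted p = 0.00651), miR-148a-3p (3.38, SE 0.55, adjusted p = 0.00567), miR-30a-5p (2.26, SE 0.49, adjusted p = 0.0219) and miR-30c-5p (2.13). The lower ones were miR-221-3p (-2.81, SE 0.49, adjusted p = 0.00651), miR-222-3p (-2.37), miR-149-5p (-1.35) and miR-16-5p (-0.82). Against the Poorly Differentiated tumours the same contrasts were 0.35 for miR-200c-3p (95% interval -1.16 to 1.86), 0.31 for miR-141-3p (-0.66 to 1.28), 1.13 for miR-30a-5p (0.05 to 2.21) and -0.41 for miR-16-5p (-0.80 to -0.02). Between the 2 pathologies, Adenocarcinoma minus Poorly Differentiated was -3.89 for miR-141-3p and -4.54 for miR-200c-3p. These were the 2 of 279 miRNAs (0.717 percent) past the threshold there, and as they prompted the split this is no test of it. For the other 9 called miRNAs the difference between pathologies did not pass, so none of them is shown to differ between the labels.

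Pathology was not spread evenly over slides: those labelled Adenocarcinoma were on slides 1 and 2 and the Poorly Differentiated ones on slides 2, 3 and 4. With slide as a block, 15 miRNAs passed against those labelled Adenocarcinoma, 0 against the Poorly Differentiated ones and 0 between the 2 pathologies. Leaving out each tumour in turn gave 8 to 17 miRNAs against those labelled Adenocarcinoma and 0 against the Poorly Differentiated ones. The highest count, 17, came without Trp53-deleted tumour 2 and shared 8 miRNAs with the 11. Between the 2 pathologies it gave 1 to 11, the 11 again without Trp53-deleted tumour 2, and miR-200c-3p was not among them without Trp53-deleted tumour 3, 4, 5 or 6.

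**Figure D4:**
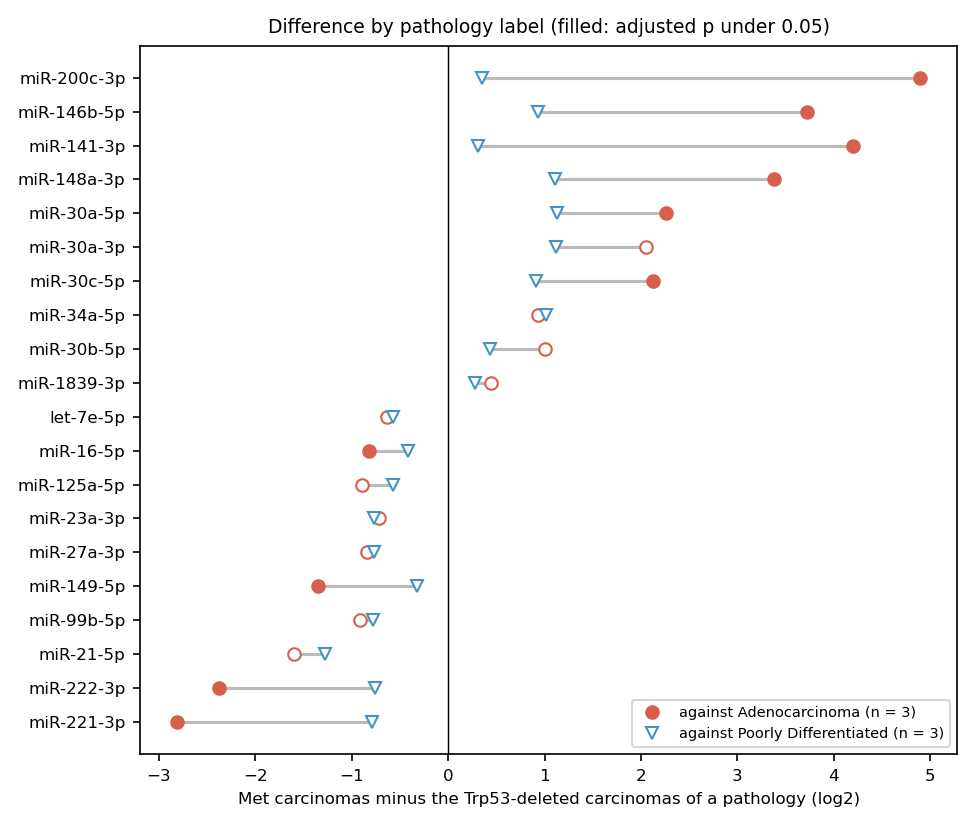
Difference in log2 level of the Met carcinomas minus the Trp53-deleted carcinomas of 1 pathology label (horizontal axis), for the same 20 miRNAs, with circles for Adenocarcinoma (n = 3) and triangles for Poorly Differentiated (n = 3), filled where the limma adjusted p was under 0.05. The 2 symbols lie far apart for miR-200c-3p (4.89 and 0.35) and miR-141-3p (4.19 and 0.31) and close together for miR-23a-3p (-0.72 and -0.77), miR-27a-3p and miR-34a-5p.

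Another set of miRNAs had nearly the same difference against both pathologies and passed the threshold against neither. miR-23a-3p, the first member of a cluster with miR-27a and miR-24, was 8.74, 9.38, 9.15, 9.45, 8.76 and 8.60 in Met tumours 1 to 6, against 9.98, 9.34, 9.82, 9.87, 9.84 and 9.69 in Trp53-deleted tumours 1 to 6. Only Trp53-deleted tumour 2 overlapped with the Met carcinomas. The difference was -0.74 (SE 0.18, limma adjusted p = 0.214) with the smallest unadjusted p of all miRNAs, 0.00149, and it was -0.72 against those labelled Adenocarcinoma and -0.77 against the Poorly Differentiated ones. On each of the 4 slides that held both groups it was negative, from -0.92 to -0.46, with 1 or 2 tumours of a group on a slide. This was not particular to miR-23a-3p: miR-322-5p, for example, was also negative on all 4, from -1.82 to -0.03. Other miRNAs changed sign, such as miR-148a-3p, at -0.28 on slide 3 and 2.11 to 3.95 on the others. Whether keeping 1 sign on all 4 slides exceeds chance was not tested. miR-27a-3p, from the same cluster, averaged 8.61 ± 0.39 in the Met carcinomas and 9.42 ± 0.40 in the Trp53-deleted carcinomas (SD, n = 6 each), a difference of -0.81 (SE 0.23).

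Their paralogs miR-23b-3p and miR-27b-3p had differences of the opposite sign, which did not pass. miR-27b-3p differs from miR-27a-3p by the single change C19U, outside the seed. It was 10.14, 8.93, 8.77, 7.21, 9.52 and 7.51 in Met tumours 1 to 6, against 7.22, 6.75, 7.48, 6.62, 9.03 and 7.90 in Trp53-deleted tumours 1 to 6, a difference of 1.18 (SE 0.55, limma adjusted p = 0.417). miR-23b-3p differed by 1.001 (SE 0.52, adjusted p = 0.478). Both groups overlapped for both miRNAs, and the solid nodular carcinomas held the 3 highest Met values of each. Without them the differences were 0.33 for miR-27b-3p and 0.09 for miR-23b-3p. miR-24-3p, which both clusters produce, averaged 10.30 ± 0.75 in the Met carcinomas and 10.33 ± 0.51 in the Trp53-deleted carcinomas (SD, n = 6 each). Probes of such near-identical miRNAs can pick up signal from one another, and how far these do was not tested.

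**Figure D5:**
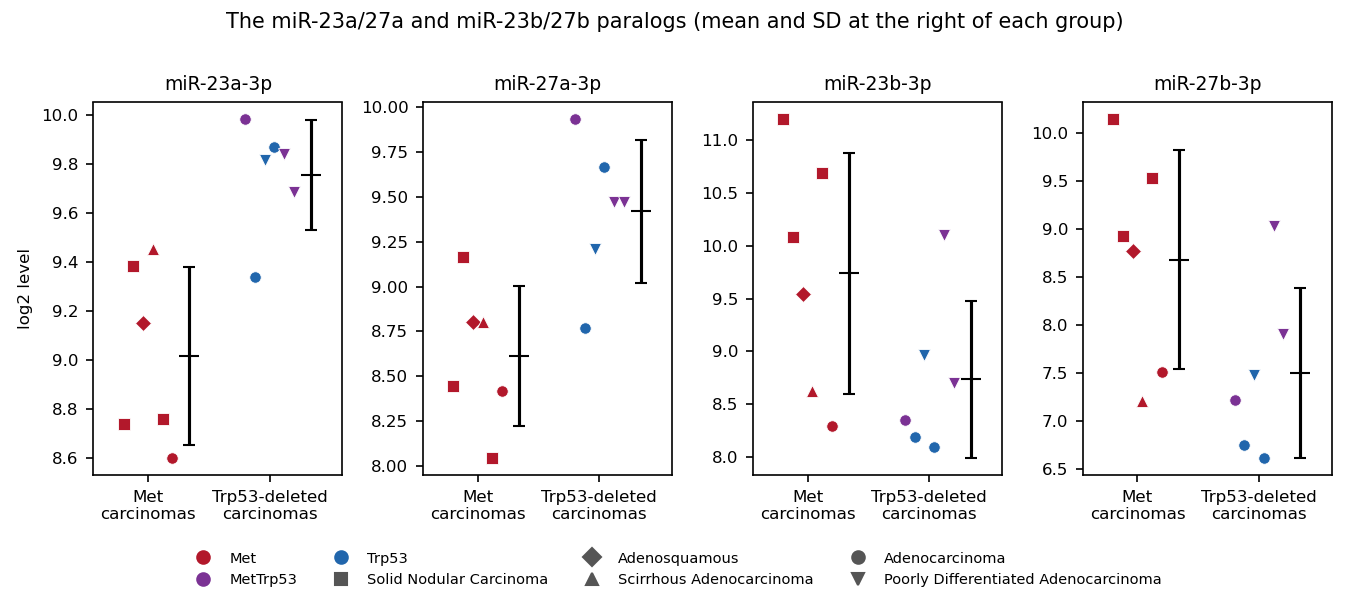
Level (log2, vertical axis, own scale for each miRNA) of miR-23a-3p, miR-27a-3p, miR-23b-3p and miR-27b-3p in each of the 12 carcinomas, Met carcinomas left and Trp53-deleted carcinomas right, with the mean and SD beside each group (n = 6 each), colour for genotype and symbol for pathology. The mean is lower in the Met carcinomas for miR-23a-3p and miR-27a-3p (differences -0.74 and -0.81) and higher for miR-23b-3p and miR-27b-3p (1.001 and 1.18).

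miR-16-5p, which represses cyclins and BCL2 and is made from 2 loci, was 7.99, 8.40, 8.44, 8.73, 8.74 and 8.57 in Met tumours 1 to 6, against 9.15, 9.39, 8.88, 9.35, 9.02 and 8.77 in Trp53-deleted tumours 1 to 6. The groups did not overlap, though Met tumour 5 and Trp53-deleted tumour 6 nearly met. Its difference was -0.61 (SE 0.16, limma adjusted p = 0.214), and it was negative on each of the 4 slides that held both groups, from -1.28 to -0.04. Again a slide held only 1 or 2 tumours of a group. miR-15b-5p, which shares the seed AGCAGCA and lies beside 1 of the miR-16 loci, differed by -0.41 (SE 0.21), and miR-15a-5p, beside the other, by -0.24 (SE 0.21). Over the 5 tested members of the miR-15 and miR-16 group 2 differences were above 0 and 3 below, with a median of -0.24.

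The cluster of miR-99b, let-7e and miR-125a on chromosome 17 had 3 of 3 members below 0, with a median of -0.73, and none passed. miR-99b-5p averaged 6.14 ± 0.55 in the Met carcinomas and 6.99 ± 0.37 in the Trp53-deleted carcinomas, miR-125a-5p 7.35 ± 0.33 in the Met and 8.08 ± 0.47 in the Trp53-deleted carcinomas, and let-7e-5p 8.73 ± 0.25 in the Met and 9.33 ± 0.45 in the Trp53-deleted carcinomas (SD, n = 6 each). Trp53-deleted tumour 5 was the lowest of its group in all 3, at 6.30, 7.20 and 8.51, values inside the Met range. For miR-99b-5p Trp53-deleted tumour 4 (6.85) was inside that range too. The remaining let-7 family, 8 members that act as tumour suppressors by repressing RAS and HMGA2, had 3 differences above 0 and 5 below, with a median of -0.09.

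miR-221-3p and miR-222-3p, which repress the cell cycle inhibitor p27, had lower means in the Met carcinomas, and the groups overlapped for both. For both miRNAs, Met tumours 4 and 5 lay above Trp53-deleted tumour 6. miR-221-3p was 3.98, 4.12, 4.93, 5.41, 5.31 and 3.89 in Met tumours 1 to 6, against 8.24, 6.21, 5.69, 7.79, 5.35 and 5.14 in Trp53-deleted tumours 1 to 6. The 2 highest values belonged to Trp53-deleted tumours 1 and 4, labelled Adenocarcinoma, which reached the 7.12 to 9.05 of the Trp53-deleted spindloid tumours. The difference over all 12 was -1.80 (SE 0.57, limma adjusted p = 0.214), and -1.56 (SE 0.50) for miR-222-3p.

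miR-31-5p, which acts on cell movement and is often deleted or silenced in breast carcinoma, had the most negative difference of all tested miRNAs, -2.63 (SE 1.07, limma adjusted p = 0.370). It was 3.60, 5.41, 5.93, 6.63, 4.48 and 3.60 in Met tumours 1 to 6, against 10.77, 3.60, 6.66, 9.61, 7.95 and 6.86 in Trp53-deleted tumours 1 to 6. All Trp53-deleted carcinomas but tumour 2, which was at the floor, lay above every Met carcinoma, Trp53-deleted tumour 3 by very little. Trp53-deleted tumours 1 and 4 lay within or above the 8.54 to 10.22 of the Trp53-deleted spindloid tumours. miR-21-5p, widely raised in cancers, was 9.20, 10.78, 11.66, 11.97, 11.12 and 11.64 in the Met carcinomas, against 13.16, 11.32, 11.87, 13.49, 12.64 and 12.51 in Trp53-deleted tumours 1 to 6, a difference of -1.43 (SE 0.50, adjusted p = 0.260). Trp53-deleted tumours 2 and 3 overlapped with the Met carcinomas, and without the solid nodular carcinomas the difference was -0.74.

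miR-149-5p was close to the floor in the Met carcinomas, at 3.60 to 3.97 and well above background in 3 of 6, and 3.89 to 5.56 in the Trp53-deleted carcinomas, where it was well above background in 6 of 6. Its difference of -0.84 (SE 0.27) may understate the size, since values at the floor have no order.

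Of the p53-induced miRNAs, 5 of 6 were tested, 1 difference was above 0 and 4 below, and none passed. miR-34a-5p, a direct p53 target that represses Met in human cells, was 8.21, 7.27, 8.18, 7.15, 9.41 and 7.63 in Met tumours 1 to 6, against 7.22, 6.42, 6.95, 7.49, 7.81 and 6.12 in Trp53-deleted tumours 1 to 6. The groups overlapped, with a difference of 0.97 (SE 0.41, limma adjusted p = 0.370) that was 0.93 against those labelled Adenocarcinoma and 1.01 against the Poorly Differentiated ones. miR-34b-5p and miR-34c-5p were at the floor in 5 of 6 Met carcinomas and in 3 of 6 Trp53-deleted carcinomas, and reached 4.85 and 5.01 in Trp53-deleted tumour 4.

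Mesenchymal miRNAs had 4 of 4 differences below 0, from -1.12 to -0.88, and none passed. miR-199a-3p was 6.24, 6.95, 8.55, 9.66, 8.12 and 6.96 in Met tumours 1 to 6, against 9.03, 8.64, 10.17, 9.10, 8.20 and 8.04 in Trp53-deleted tumours 1 to 6. The scirrhous Met carcinoma (tumour 4), a histology rich in stroma, had the highest Met value and lay inside the range of the Trp53-deleted carcinomas. It also had the highest Met value of miR-146a-5p (6.34) and of miR-223-3p (9.45), a myeloid miRNA whose difference over all 12 was -1.21 (SE 0.61). miR-125b-5p differed by -1.19 (SE 0.59). miR-205-5p, a miRNA of basal and squamous epithelium, was highest among Met carcinomas in the adenosquamous one (9.22), and stood at 6.21, 3.60, 8.15, 3.60, 8.40 and 9.20 in Trp53-deleted tumours 1 to 6. Its difference of 0.95 (SE 1.07) was -1.11 against the Poorly Differentiated tumours, the opposite sign. Neither passed, nor did its difference between the pathologies in the fit of all 12 carcinomas, so a dependence on pathology is not shown.

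Among the groups not named so far, the miR-181 family had 4 of 4 differences above 0 (median 0.52), the miR-29 family 3 of 3 below 0 (median -0.36) and the miR-17-92 cluster with its paralogs 6 of 10 above 0 (median 0.17). miR-183, miR-96 and miR-182, which are epithelial miRNAs of 1 cluster, had 1 of 3 above 0, and miR-143 with miR-145, of smooth muscle and myoepithelial cells, 2 of 2 above 0 with a median of 0.30. No member of these groups passed the threshold.

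The Trp53-deleted carcinomas with and without the Met transgene were then compared with the Met carcinomas separately, in 1 fit with 3 groups in which both contrasts share the 6 Met carcinomas. None of 279 miRNAs passed for Met minus MetTrp53 (0 percent, smallest adjusted p 0.590), for Met minus Trp53 (0 percent, smallest adjusted p 0.204) or for MetTrp53 minus Trp53 (0 percent, smallest adjusted p 1). At an unadjusted p under 0.05, Met minus MetTrp53 had 15 (5.38 percent), 3 higher (1.08 percent) and 12 lower (4.3 percent) in the Met carcinomas. Met minus Trp53 had 30 (10.8 percent), 16 higher (5.73 percent) and 14 lower (5.02 percent). MetTrp53 minus Trp53 had 7 (2.51 percent), all 7 higher (2.51 percent) and 0 lower (0 percent) in the MetTrp53 carcinomas. Single tumours moved these counts: Met minus MetTrp53 had 3 without Trp53-deleted tumour 1 and 24 without Trp53-deleted tumour 6. MetTrp53 minus Trp53 had 17 without Trp53-deleted tumour 1, 14 without tumour 3, 0 without tumour 5 and 4 without Met tumour 3. miR-30a-5p differed by 1.54 (SE 0.57) from the MetTrp53 carcinomas and 1.85 (SE 0.57) from the Trp53 carcinomas, and miR-16-5p by -0.50 (SE 0.20) and -0.73 (SE 0.20). The Met carcinomas did not overlap with the MetTrp53 carcinomas for 11 miRNAs (3.94 percent) and with the Trp53 carcinomas for 16 (5.73 percent). miR-148a-3p had the smallest p against the Trp53 carcinomas, at 3.13 (SE 0.67, limma adjusted p = 0.204). There it passed with normexp background correction (2.29, adjusted p = 0.0206) and with all 25 arrays in the fit (3.13, adjusted p = 0.0276). The difference from the MetTrp53 carcinomas was 1.36 (SE 0.67), and between MetTrp53 and Trp53 carcinomas it was 1.77 (SE 0.77, adjusted p = 1). Of the 3 MetTrp53 carcinomas 2 were Poorly Differentiated and of the 3 Trp53 carcinomas 1, so genotype and pathology were partly mixed.

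For miR-21-5p and miR-31-5p the Met carcinomas did not overlap with the MetTrp53 carcinomas. Their differences from the MetTrp53 carcinomas were -1.71 (SE 0.62, limma adjusted p = 0.772) and -3.58 (SE 1.28, adjusted p = 0.772). From the Trp53 carcinomas, where tumour 2 had low values of both, they were -1.16 (SE 0.62) and -1.68 (SE 1.28). The difference between the MetTrp53 and the Trp53 carcinomas, 0.54 (SE 0.71) for miR-21-5p and 1.90 (SE 1.47) for miR-31-5p, did not pass.

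When every tumour entered, whatever its pathology, 40 of 279 miRNAs (14.3 percent) passed between 7 Met and 16 Trp53-deleted tumours, 22 higher and 18 lower in the Met tumours. That comparison holds 1 spindloid tumour among the Met and 6 among the Trp53-deleted tumours, besides 3 intermediate ones and 1 with no stated pathology. Trp53-deleted tumours 2 and 3, and likewise tumour 4 and 1 spindloid tumour, share a title number and were counted separately, so its p-values may be too small. Among the 12 carcinomas, which hold no spindloid tumour by label, miR-200c-3p differed by 2.62 and in all tumours by 3.87, miR-221-3p by -1.80 and -2.57, and miR-23a-3p by -0.74 and -0.78.

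Parity went with genotype, since no Met carcinoma was stated to be from a nulliparous mouse. Among the 7 carcinomas from multiparous mice, 5 Met and 2 Trp53-deleted, 1 miRNA passed, miR-296-5p at -1.38 (SE 0.15, limma adjusted p = 0.0150). It was 3.60, 3.60, 3.70, 3.66, 3.60 and 3.74 in Met tumours 1 to 6, against 5.02, 5.27, 3.76, 3.60, 5.06 and 3.60 in Trp53-deleted tumours 1 to 6. The 2 Trp53-deleted carcinomas from multiparous mice, tumours 1 and 5, were high, and tumour 2, of unstated parity, was also high. Over all 12 carcinomas its difference was -0.74 (SE 0.32, adjusted p = 0.395). In multiparous mice alone the difference was 0.17 for miR-34a-5p, 0.98 for miR-148a-3p and 1.47 for miR-200c-3p, against 0.97, 2.24 and 2.62 over all 12 carcinomas.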

How the data were processed

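MicroRNA was measured in 25 samples on one-colour Agilent mouse arrays, 1 array a sample, from RNA extracted with a miRNeasy kit, per the labels' protocols. Per the file headers, Feature Extraction 10.7.3.1 produced the intensity values of the deposited scanner files. The authors' deposited table holds log2 values, and RMA is named in the submitters' processing notes. Its columns have medians of 1.72 to 1.91, and how it was centred stays unknown.

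From the scanner files, processed signals were averaged per probe without outlier spots and divided by each array's 75th percentile over the 221 probes that every array measured well above background. After a floor and log2, the mean over its probes gave each miRNA's level. Testing required detection on at least 6 of the 12 carcinoma arrays. Moderated linear models (limma 3.58.1, R 4.3.3) gave p-values, adjusted by Benjamini-Hochberg over 279 miRNAs, with a threshold of 0.05. The number of arrays limits the precision.

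The text names the 10 miRNAs of smallest p in each direction where fewer passed, those whose groups do not overlap, and members of the lists. The rule for the members uses labels alone, but the comparison, its members and the lists were chosen with earlier results of these data known. Alternatives covered background, scaling, floor, filter, probes, slide, scan, moderation, samples, parity and pathology. The normexp alternative used median signals, as the files hold no mean signal column.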

Additional observations from a re-analysis of the deposited data

Results flagged for a closer look

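In Trp53-deleted tumour 5, miR-125a-5p stood at 7.20, far below the other 5 Trp53-deleted carcinomas at 8.10 to 8.47. Met tumour 4, the scirrhous carcinoma, stood apart from the other Met carcinomas for miR-146a-5p (6.34, others 4.06 to 4.85), miR-31-3p (3.84, others at the floor of 3.60) and miR-21-3p (3.65, others 3.60 to 3.62). Met tumour 3, the adenosquamous carcinoma, stood apart for miR-34b-5p (4.01) and miR-34c-5p (4.18), with the others at 3.60. These are 6 of 88 groups of 6 values looked at. Chance picks out about 1 in 20 groups, but that rate does not hold for miR-31-3p, miR-21-3p, miR-34b-5p and miR-34c-5p, where the other tumours lie at or near the floor and any value off it stands apart.

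Among the Trp53-deleted carcinomas, Adenocarcinoma minus Poorly Differentiated was -3.89 for miR-141-3p and -4.54 for miR-200c-3p. The split by pathology was chosen after these values were seen, so its test is no independent evidence. With slide as a block neither passed, and miR-200c-3p did not pass without Trp53-deleted tumour 3, 4, 5 or 6.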

How the results depend on the processing

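For Met minus Trp53-deleted carcinomas, the count of miRNAs past the threshold was 0. It became 1 in multiparous mice alone and 1 with parity as a covariate (miR-296-5p both times). Those 2 settings are 1 contrast with the same difference, -1.38, since no Met carcinoma was stated to be from a nulliparous mouse. The count became 40 with all tumours, and 11 with the Trp53-deleted carcinomas labelled Adenocarcinoma alone, the last chosen after seeing the data. Leaving out each carcinoma in turn gave 0 to 3, with 3 without Trp53-deleted tumour 5. For Met minus Trp53 carcinomas it was 0 and became 1 with normexp and 2 with all 25 arrays, and 0 to 4 leaving out each carcinoma, with 4 without Trp53-deleted tumour 3. For the other 2 genotype contrasts leaving out a carcinoma gave 0. normexp moved the median difference over all miRNAs to -0.12. Of 44 named miRNAs, 37 kept their sign under each of the 35 or 36 settings run for them. The settings overlap: leaving out the adenosquamous carcinoma is leaving out Met tumour 3, and the 2 parity settings give the same differences. Many of the miRNAs were named for their small p in these same tumours, so a kept sign is no independent evidence. The reversals were miR-30d-5p without solid nodular carcinomas (-0.16), miR-15a-5p with all tumours (0.074), miR-205-5p with stated parity and no covariate (-0.27), and, against Poorly Differentiated tumours alone, miR-205-5p (-1.11), miR-200b-3p (-0.00011), miR-34b-5p (0.058) and miR-34c-5p (0.081). miR-24-3p, near 0, reversed in the authors' table (0.0101), with a block for slide (0.27) or for scan date (0.24), and ran from -0.25 to 0.15 when each carcinoma was left out. The cause was not tested. No paired analysis was possible, since the labels pair no Met tumour with a Trp53-deleted one and the replicate numbers only follow accession order.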
